A study of Mus musculus with 4 samples.

Results

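The genes described here carried 2 or more m6A peaks in the control list and no peak at all in the knockout list. There were 244 such genes, with 564 peaks, out of 20766 control peaks in 10734 genes and 21179 knockout peaks in 10904 genes. Members were chosen by counting the rows of each Ensembl gene ID in both lists, so the absence of a knockout peak is the rule itself and not a result. Of the 5453 genes with 2 or more control peaks, 4.47% met the rule.

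The lists came from MeRIP-seq, an assay that enriches RNA fragments with an antibody against N6-methyladenosine (m6A) and sequences them beside the RNA before enrichment (the input). Hearts of 4-day-old Wtap-CKO mice, called knockout here, were compared with hearts of 4-day-old Wtapflox/flox mice, called control. RNA was pooled from 8 knockout and 7 control mice, and each genotype gave 1 immunoprecipitation (IP) library and 1 input library. The labels name neither the Cre driver of the Wtap-CKO mice nor the cells in which Wtap is deleted.

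m6A is laid down on messenger RNA by a nuclear writer complex with METTL3 as the catalytic subunit and METTL14 as its partner, and WTAP is the subunit that helps to hold this pair in nuclear speckles. Most m6A lies in long internal exons, around stop codons and in 3′ untranslated regions, and reader proteins of the YTH family bind it and change the splicing, translation or decay of the transcript. In the heart, m6A writers and erasers are known to bear on growth of cardiac muscle cells and on heart failure.

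A peak in these lists is an exonic stretch in which the IP exceeded its own input. The fold (IP over input) and the log10 p and log10 q of a peak are the values of the authors' peak caller, and here they serve to rank and describe the peaks of 1 list at a time. A smaller (more negative) log10 q is stronger evidence for a peak, and peaks with q at or under 1e-10 are called strong. A gene without a peak is one for which none was called. A lower transcript level and a lower methylation of the transcript then cannot be told apart from these files, and in whole hearts neither can fewer cells of a type and less RNA per cell. Read counts are not in these lists and the depth of the libraries is unknown, and with 1 library of each kind per genotype there is no replicate check on any value. Intervals are 95% intervals that cover counting error only and take peaks or genes as independent. Positions are those of the mouse genome build GRCm39. The parts of the transcripts (coding exons, untranslated regions) in which peaks lay were not analysed here.

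All 13 markers of heart muscle that were checked, among them Myh6, Tnnt2, Actc1 and Nppa, had a peak in both lists. Wtap itself had 4 knockout and 3 control peaks, which do not check the deletion.

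The 12 members with the smallest p were Acsl1, Fitm2, Cpt2, Slc20a2, Dsc2, Fam210a, Corin, Camk2a, Aqp4, Ppp1r3a, Crhr2 and Dsg2. Acsl1, which encodes the long-chain acyl-CoA synthetase that activates fatty acids in heart muscle, led them with 3 control peaks within 1319 bases of chromosome 8. The peak at 46987381 to 46987920 had a fold of 5.89 and a log10 p of -1050, and its log10 q is listed as minus infinity. The next peak downstream, at 46988100 to 46988399, had a fold of 3.32 and a log10 q of -255, and the last, at 46988549 to 46988699, had a fold of 1.63 and a log10 q of -30.4. Acsl1 was the member with the largest number of strong peaks (3), and none of its folds was above the median fold of the members (9.62).

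Fitm2 encodes a membrane protein of the endoplasmic reticulum that is needed to form lipid droplets. Its peak on chromosome 2 at 163311191 to 163312026 had a fold of 11.3 and a log10 q of -100, and the peak downstream of it at 163310774 to 163311013 had 6.45 and -23.7. Cpt2 encodes carnitine palmitoyltransferase 2, which releases long-chain acyl-CoA inside mitochondria for oxidation. Its peaks on chromosome 4, at 107764730 to 107765387 and at 107761178 to 107761596, had folds of 3.97 and 4.70 with log10 q of -68.3 and -77.0. Both peaks of each gene were strong.

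The desmosomal cadherins desmocollin 2 and desmoglein 2, which couple heart muscle cells at the intercalated disc, are encoded by genes of 1 cluster on chromosome 18, and both were members. Dsc2 had its strongest peak at 20164889 to 20165459 (fold 6.68, log10 q -47.3), a peak at 20192431 to 20192551 with the same fold but a log10 q of -3.06, and a peak with a fold of 1.72. Dsg2 had a peak in 2 exonic blocks at 20731459 to 20734613 (fold 6.51, log10 q -17.6), which overlapped a control peak of Gm16090 on the other strand, and a peak at 20736440 to 20736679 (fold 3.45, log10 q -36.2). Reads of a gene and its antisense partner may not be told apart, since the counting by strand is not stated.

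Ppp1r3a encodes the subunit that targets protein phosphatase 1 to glycogen in striated muscle. Its 3 peaks lay side by side on chromosome 6 between 14717802 and 14719505, with folds of 15.2, 16.4 and 4.07 in the direction of transcription and log10 q of -10.9, -39.0 and -5.95. Slc20a2, which encodes a sodium-dependent phosphate transporter, had peaks with folds of 5.92, 2.28 and 3.53 and log10 q of -61.1, -3.15 and -52.2. Each of these 3-peak genes thus held both strong and weak peaks.

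Fam210a, which encodes a mitochondrial protein, had 6 control peaks on chromosome 18, of which 2 were strong, at 68401245 to 68401634 (fold 7.36, log10 q -45.0) and at 68395532 to 68395890 (fold 8.72, log10 q -40.0). The other 4 had folds between 2.41 and 2.86. One strong and one weak peak of Fam210a overlapped control peaks of Ldlrad4 on the other strand, and the other strong peak overlapped no other gene's peak.

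Corin encodes the protease that cuts atrial natriuretic peptide out of its precursor, and its 3 peaks on chromosome 5 had folds of 14.4, 5.94 and 5.69 with log10 q of -3.46, -4.38 and -44.2. The largest fold of Corin therefore belonged to its weakest peak. Crhr2 encodes the receptor of corticotropin-releasing hormone and the urocortins, and its strongest peak on chromosome 6 at 55067901 to 55068290 had a fold of 9.20 and a log10 q of -36.6. Camk2a, a gene of the calcium/calmodulin-dependent kinase II family, had a peak of 930 bases between 61117897 and 61118826 of chromosome 18, with a fold of 7.56 and a log10 q of -43.2, and another with a fold of 4.81. The water channel gene Aqp4 had a peak at 15526058 to 15526748 (fold 12.7, log10 q -40.6) and one in 2 exonic blocks upstream of it (fold 23.7, log10 q -11.6).

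**Figure D1:**
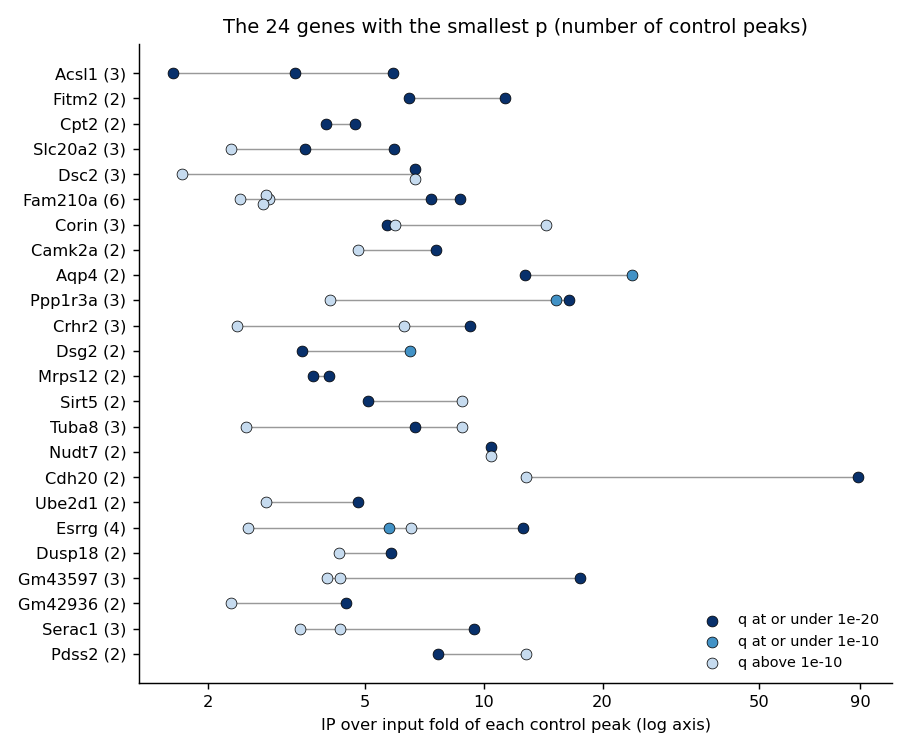
Fold (IP over input, log axis) of every control peak of the 24 member genes with the smallest p, with the number of control peaks in brackets. Each point is 1 peak, darker for smaller q, points of nearly equal fold are set slightly above one another, and the line joins the lowest and highest fold of the gene. The strongest peaks of Acsl1, Fitm2 and Cpt2 lie between 4.70 and 11.3, and the largest fold, 89.0, is that of Cdh20.

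Nudt7, Sirt5, Tuba8 and Pdss2, which also stood among the 24 members with the smallest p, each had 1 strong peak. Sirt5 and Pdss2 were named after their values were seen. Nudt7, which encodes a peroxisomal coenzyme A hydrolase, had peaks of the same fold, 10.4, and log10 q of -32.1 and -1.79. Sirt5, a mitochondrial desuccinylase gene, had a strong peak with a fold of 5.09 (log10 q -34.0) and a weak one with 8.82 (-1.38). Pdss2, which takes part in making the side chain of coenzyme Q, had 7.66 (-26.6) and 12.8 (-2.42). Tuba8, an alpha-tubulin gene, had its strong peak at a fold of 6.68 (log10 q -32.5), between weak ones of 8.82 and 2.49. In Sirt5, Pdss2 and Tuba8 the peak with the largest fold was thus not the one with the smallest q.

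Among member peaks that lie in the 25% of control peaks with the smallest q, the largest fold belonged to Cdh20, a type II cadherin gene. Its peak on chromosome 1 at 104921859 to 104922308 had a fold of 89.0 (log10 q -30.2), and its other peak, 12.8 (-3.12). Peaks of Gm43597, Ppp1r3a, Aqp4, Esrrg, Fitm2, Nudt7 and Crhr2 followed, with folds from 17.5 to 9.20. Peaks of weaker q are left out of this order, whatever their fold. Gm43597, a gene model without a RefSeq match, had a peak of 751 bases between 150523547 and 150524297 of chromosome 5, with a fold of 17.5 and a log10 q of -28.7, and weak peaks of 4.01 and 4.33.

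Strong peaks were a minority among the members. Of the 564 peaks, 80 (14.2%, 11.4 to 17.3) were strong, in 68 genes, against 7435 of the 14921 other control peaks of genes with 2 or more peaks (49.8%, 49.0 to 50.6), and 48.0% of all control peaks were strong. Only 11 members had 2 or more strong peaks: Acsl1 with 3, and Fitm2, Cpt2, Slc20a2, Fam210a, Aqp4, Ppp1r3a, Dsg2, Mrps12, Esrrg and Zfp68 with 2 each. In Mrps12, which encodes a protein of the small mitochondrial ribosomal subunit, the strong peaks (folds 4.05 and 3.69) overlapped almost entirely, and in Zfp68 the strong peaks (5.13 and 3.36) overlapped too. A further 57 members had 1 strong peak and 176 had none.

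Member peaks had larger folds and weaker q than the other control peaks of multi-peak genes, a description with no test, since the rule drew on the same calls. The median fold was 9.62 (8.42 to 10.4) for member peaks, against 7.02 (6.87 to 7.18) for the others, and the median log10 q was -3.30 (-3.67 to -3.08) against -9.93 (-10.3 to -9.62). Member peaks were also shorter, with a median of 180 exonic bases (179 to 181) against 298 (271 to 299), and 7.98% of them spanned more than 1 exonic block, against 21.6% of the others. Peaks under 10 in fold were the majority in both classes, and 46.8% of member peaks against 34.7% of the others had a fold of 10 or more. Short peaks were not particular to members. In control-only genes with 1 peak the median width was 179 bases (163 to 180), and 11.7% of peaks spanned more than 1 block.

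The larger median fold of member peaks was seen among the weaker peaks and not among the strong ones. Among strong peaks the median fold was 6.68 (5.83 to 8.92) for members and 8.34 (8.15 to 8.50) for the others, and these intervals overlap. Among the rest it was 9.62 (8.82 to 10.4) for members and 5.35 (5.17 to 5.48) for the others. Within both classes member peaks had the weaker q. Their median log10 q was -17.6 against -29.3 among strong peaks, and -3.03 against -4.07 among the rest. The strong member peaks had a median width of 331 bases (301 to 389), against 421 (421 to 449) for the other strong control peaks.

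**Figure D2:**
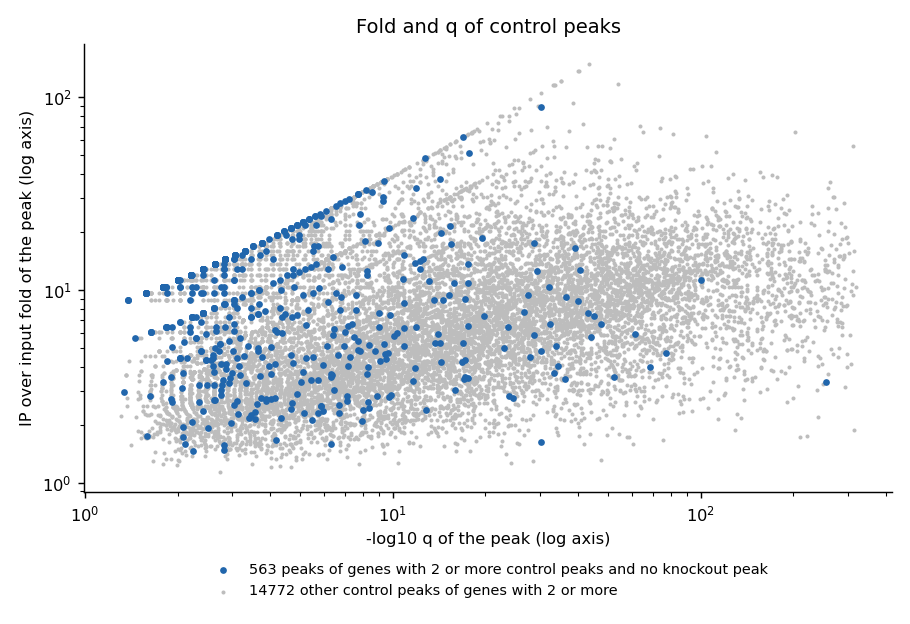
Fold (IP over input) of control peaks against -log10 q, both on log axes. Blue points are the member peaks and grey points the other control peaks of genes with 2 or more peaks. Peaks with a q listed as 0 (log10 q minus infinity) have no place on the axis and are left out, 1 of them a member peak (Acsl1). Many member peaks lie on the upper left border, where the fold is large and q is weak, and 80 lie at or beyond 10 on the horizontal axis, or have no place on it.

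Many of the weak member peaks carried values that other peaks of the control list carried too. A pair of fold and log10 p was called recurring where 10 or more peaks of the list shared it, a measure chosen after the values were seen. The most common pair, a fold of 12.8 with a log10 p of -3.17, stood at 157 control peaks, of which 18 were member peaks, and a fold of 13.6 with a log10 p of -3.40 stood at 155, of which 19 were member peaks. Of all control peaks, 15.1% had a recurring pair. Of member peaks it was 45.9% (259 of 564, 41.8 to 50.1), against 13.1% (12.5 to 13.6) of the other control peaks of multi-peak genes. None of the 80 strong member peaks had one, and none of the 7435 other strong control peaks of multi-peak genes did. Within the weaker peaks it was 53.5% (49.0 to 58.0) of member peaks and 26.0% (25.1 to 27.1) of the others. In 71 members every peak had a recurring pair, and in 80 members none had. Such counts per gene are not given here for other multi-peak genes.

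Examples of genes made up of such peaks were Zswim5, whose folds were 12, 11.2 and 20.1, Carmil3 with 16, 20.9 and 6.02, and B3galt1, a galactosyltransferase gene, with 19.2 and 13.6, each listed for 2 overlapping peaks. The pairs of Zswim5 stood at 151, 150 and 55 control peaks. The members whose strongest peak was weakest were Thrb, the thyroid hormone receptor beta gene (folds 6.42 and 6.02, smallest log10 q -1.83), Flrt1 (10.4 and 5.08, -1.92), 5830454E08Rik (10.4 at both of its overlapping peaks, -1.79), 2310014F06Rik (8.82 and 11.2, -2.0) and 9330161L09Rik (11.2 and 10.4, -2.0). Ccdc184, Cep72 and Sphkap had the same smallest log10 q of -2.0 and were left out by alphabetical order alone. The peaks of the 5 genes described were between 89 and 91 bases wide, and each of their pairs recurred, which does not hold for all peaks of the tied genes.

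The number of peaks per member was low. There were 190 members with 2 control peaks, 40 with 3, 10 with 4, 2 with 5, 1 with 6 and 1 with 8. The share of genes without a peak in the other list was lower at each step from 1 to 5 peaks in both genotypes. For genes with 1 peak it was 24.1% of 5255 knockout genes and 19.6% of 5281 control genes. For genes with 2 peaks it was 5.0% of 3119 knockout genes and 6.34% of 2996 control genes, for 3 peaks 1.41% of 1420 and 2.95% of 1355, and for 4 peaks 0.480% of 625 knockout genes and 1.60% of 625 control genes. At 5 peaks it was 0.386% of 259 knockout genes and 0.820% of 244 control genes, with intervals that overlap those at 4 peaks. At 6 or more peaks it was 0 of 226 knockout genes, which allows up to 1.62%, and 2 of 233 control genes (0.858%).

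In the mirror count, 180 genes had 2 or more knockout peaks and no control peak. That was 3.19% (2.74 to 3.68) of 5649 genes with 2 or more knockout peaks, against 4.47% (3.94 to 5.06) of the 5453 genes with 2 or more control peaks. Of genes with 2 or more peaks and a strong one among them, 16 of 4064 knockout genes (0.394%, 0.225 to 0.639) had no control peak, and 68 of 4272 control genes (1.59%, 1.24 to 2.01) had no knockout peak. By the strongest peak of the gene, at a log10 q above -3 the share was 25% of knockout genes and 45.3% of control genes, the widest difference of these classes, and between -3 and -5 it was 14.5% of knockout genes and 14.6% of control genes. Between -5 and -10 it was 5.19% of knockout genes and 8.97% of control genes, between -10 and -20 it was 1.03% of knockout genes and 4.23% of control genes, and between -20 and -50 it was 0.204% of knockout genes and 1.56% of control genes. At a log10 q of -50 or lower it was 2 of 1529 knockout genes (0.131%) and 4 of 1827 control genes (0.219%). Depth and enrichment of the libraries are unknown, and their part in these shares was not tested.

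**Figure D3:**
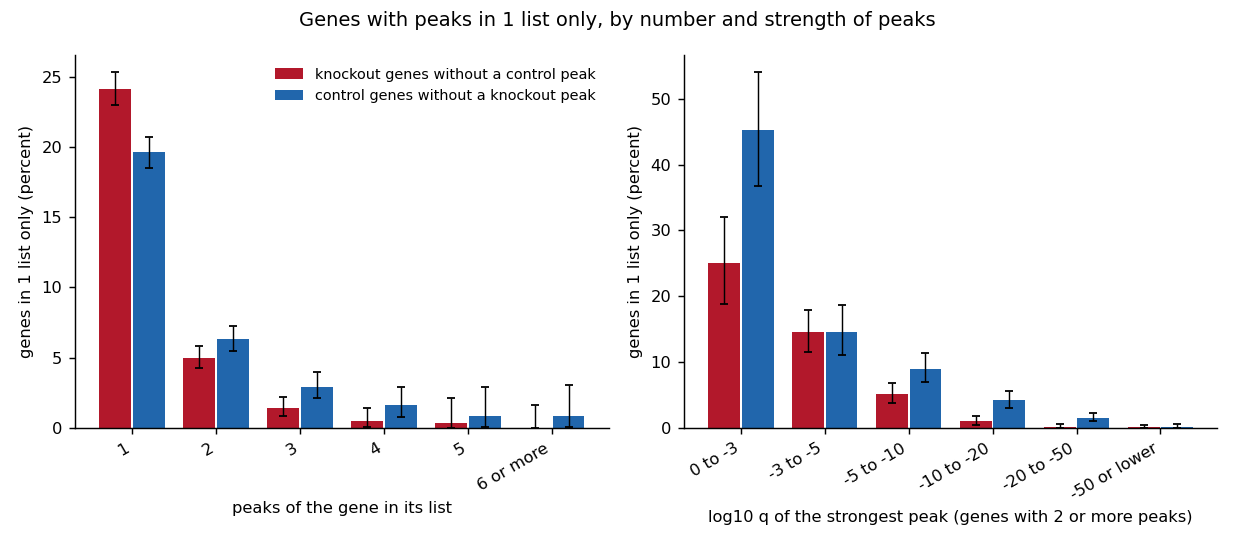
Percent of genes with no peak in the other list, by the number of peaks of the gene (left) and, for genes with 2 or more peaks, by the log10 q of its strongest peak (right). Red bars are knockout genes without a control peak, blue bars control genes without a knockout peak, and error bars are exact 95% intervals. Shares are lower at each step from 1 to 5 peaks and with each class of stronger q in both lists, and for 1 peak the knockout share (24.1%) is above the control share (19.6%), while for 2 and more peaks the control share is the higher one.

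Peaks of the knockout-only genes had folds and widths near those of the members, and fewer of them were strong. They had a median fold of 9.38 (7.69 to 10.3) within the knockout list and a median width of 151 bases, and 4.37% of the 389 peaks (2.57 to 6.91) were strong, against 14.2% (11.4 to 17.3) of the member peaks. The lists themselves differed in this: 45.0% of the other knockout peaks of multi-peak genes were strong, against 49.8% of the other control peaks. A recurring pair stood at 49.6% of them (44.5 to 54.7) and at 45.9% of member peaks. The knockout-only genes with the smallest p were Tm4sf1, a tetraspanin-like membrane protein gene (folds 3.96 and 5.86, smallest log10 q -86.0), Ndufb1, a complex I subunit gene (2.18 and 4.13, -51.0), and Rpl26, a ribosomal protein gene (15.9 and 2.29, -36.0). Those with the most peaks were Pcdh9 with 5 and Emc10, Tmem150c and Nprl3 with 4 each. Dap had the smallest p of the 20 genes with 3. None of the peaks of these 5 genes was strong.

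The rule turns on 1 knockout peak or on 1 control peak. Just outside it lay 895 genes with 2 or more control peaks and exactly 1 knockout peak. Their control peaks had a median fold of 6.53 and a median log10 q of -6.05, and in 833 of them (93.1%) the knockout peak overlapped a control peak of the gene. The genes of this kind with the most control peaks were Gm26672 and Myh14 with 7 and Akap17b with 6. Nav2 and Nhsl1 had the smallest p of the 7 genes with 5. The single knockout peak of Myh14 had a fold of 13.1 and a log10 q of -2.37, and that of Nhsl1 a fold of 7.34 and -27.4. On the other side lay 1034 genes with exactly 1 control peak and no knockout peak, with a median fold of 6.76 and a median log10 q of -3.50. The 190 members with 2 peaks had a median fold of 9.62 and a median log10 q of -3.04, and their log10 q ran from -100 to -1.34.

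The absence of knockout peaks was checked at the positions of the member peaks. No member symbol stood in the knockout list under another gene ID, and no knockout peak of another gene overlapped a member peak on the same strand. On either strand 3 member peaks did, those of D630008O14Rik with Bcl2, Gm15943 with Klhl38 and the ribosomal protein gene Rps18 with Vps52. Within the control list, 9 peaks of 6 members overlapped a peak of another gene on the same strand, so that the gene to which these peaks belong is uncertain. These members were Gm42936, Aldh4a1, Pdxp, Zfp729b, Trpc2 and Gal3st4. On either strand it was 35 peaks of 26 members, among them Serac1 with Synj2 and Pcdhgb7 with Gm26672. Some members overlapped each other on opposite strands, D030055H07Rik with Glyctk and Gm37915 with Mfsd9. The same signal may thus be counted in both genes of such a pair.

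Peaks of a member lay closer together than those of other multi-peak genes. The median genomic distance between the outermost peak centres, introns included, was 1920 bases (1424 to 2380) in members, against 8772 bases (8194 to 9404) in the other genes with 2 or more control peaks. It was 2124 bases (1358 to 3290) in knockout-only genes. All peak centres lay within 1000 bases in 89 members (36.5%, 30.4 to 42.9), against 15.1% (14.1 to 16.1) of the other genes. In knockout-only genes it was 37.2% (30.1 to 44.7). Among genes with exactly 2 peaks the median distance was 1628 bases (940 to 2142) in members, against 4295 bases (3828 to 4953) in the other genes. In these 2-peak genes the stronger one lay downstream in 100 of 190 members (52.6%, 45.3 to 59.9) and in 1738 of 2806 other genes (61.9%, 60.1 to 63.7). Knockout-only genes with 2 peaks were near the members in both, with a median distance of 1795 bases (1153 to 3136) and 48.1% downstream (40.0 to 56.2). Genes whose peaks had the same p and q are counted as not downstream. These were 8 of the members, 17 of the others and 11 of the knockout-only genes.

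The spread of folds within a gene varied between members. The highest fold was a median of 1.69 times the lowest. In 96 members it was under 1.5 times, and in 19 members it was 5 times or more. The 19 included Zbtb20, a zinc finger repressor gene, with a peak of 17.6 (log10 q -3.75) and downstream peaks of 2.43 (-8.37) and 1.59 (-2.11). The spread of folds within other multi-peak genes is not given here, so whether that of the members is usual cannot be said.

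The member with the most control peaks was Gm9899, a long non-coding RNA by its RefSeq type, with 8 between 30731331 and 30736777 on chromosome 5. Its folds were between 4.10 and 20.9, 1 peak was strong (fold 14.4, log10 q -12.5), and 2 of the 8 overlapped each other. Ppm1l, which encodes a magnesium-dependent protein phosphatase, had 5 peaks between 69460519 and 69463577 of chromosome 3, with folds of 4.66, 2.71, 4.81, 4.38 and 3.61 and log10 q between -9.49 and -3.19. Pcdhgb8, of the gamma protocadherin cluster and a transcribed pseudogene by its RefSeq type, had 5 with folds from 7.22 to 21.7, of which 1 was strong (19.8, log10 q -14.3). These genes differ in kind: the peaks of Ppm1l had like folds and none was strong, while those of Gm9899 and Pcdhgb8 mixed strong and weak.

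Esrrg, the estrogen-related receptor gamma gene, whose product drives mitochondrial and oxidative genes in the perinatal heart, had 4 control peaks within 1650 bases of chromosome 1. In the direction of transcription their folds were 12.6, 5.75, 6.53 and 2.53, and their log10 q were -29.4, -10.1, -7.17 and -3.05. The q weakened with each peak in this direction, and the fold did too except at the third peak. Mypn, which encodes the Z-disc protein myopalladin, had 4 peaks with low folds (3.39, 2.52, 4.22 and 2.17), of which 1 was strong, at 62952499 to 62952768 on chromosome 10 (log10 q -16.8).

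**Figure D4:**
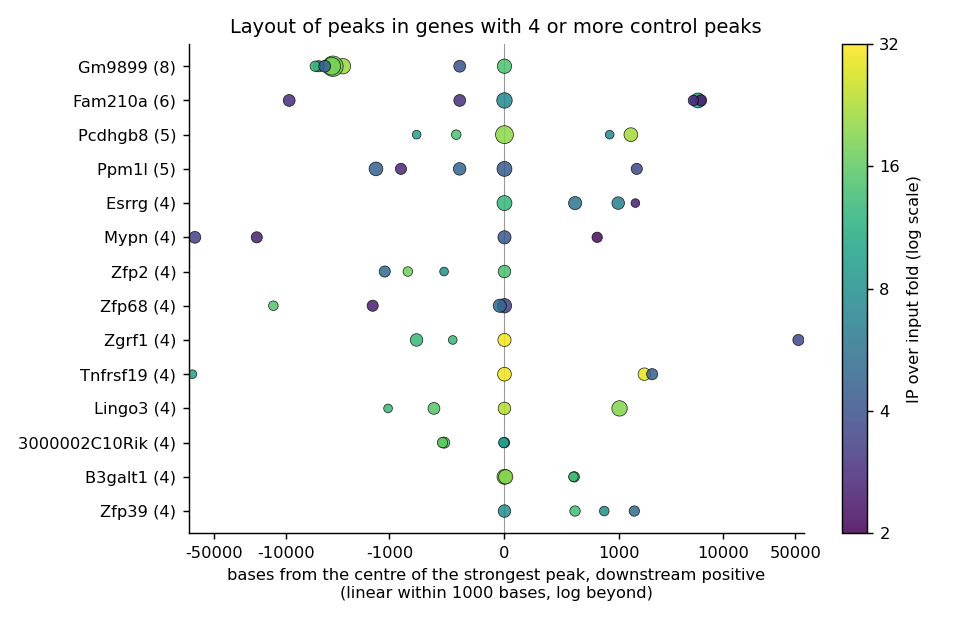
Positions of the control peaks of the 14 members with 4 or more peaks, as genomic distance in bases from the centre of the gene's strongest peak, with downstream to the right (linear within 1000 bases, log beyond). Point area grows with peak width, colour gives the fold on a log scale, and the number of peaks is in brackets. Peaks of Esrrg extend downstream of the strongest one, those of Zfp2 lie upstream of it, and Mypn and Zgrf1 have peaks far beyond 1000 bases from it.

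Of 22 gene lists with 653 genes, 308 genes had 2 or more control peaks and 16 of these were members (5.19%, 3.0 to 8.30), against 4.47% over all genes. Of 283 list genes with 2 or more knockout peaks, 6 had no control peak, against 3.19% over all genes. The share of members on the lists as a whole was near that of all genes, and each single list is too short to place its share. The lists were drawn up with earlier results of these data known.

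The intercalated disc and cell junction list held 3 members of 24 genes with 2 or more control peaks (12.5%, 2.66 to 32.4). Besides Dsc2 and Dsg2 this was Ctnna3, which encodes alpha-T-catenin of the heart's cell junctions, with weak peaks of 10.4 (log10 q -1.79) and 16 (-3.31). The fatty acid oxidation and uptake list held 2 of 18, Acsl1 and Cpt2. The list of nuclear receptors and coactivators of metabolism held 2 of 17, Esrrg and Thrb, of which only Esrrg had strong peaks. No gene of these 3 lists was knockout-only.

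The ion channel list held 2 of 20. Kcna4, which encodes a potassium channel of the transient outward current, had 3 peaks on chromosome 2, of which the widest, 926 bases at 107126222 to 107127147, had a fold of 33.7 (log10 q -11.9), and the others had 8.02 (-3.12) and 23.3 (-5.35). Hcn2, a pacemaker channel gene, had folds of 8.42, 8.59 and 7.42, of which the middle peak was strong (log10 q -10.9) and the last, at -9.82, was just short of it. The calcium handling list held 2 of 19, Camk2a and Ppp1r3a, and 1 of its 17 genes with 2 or more knockout peaks, Itpr3, was knockout-only. Ppp1r3a was placed on that list, though it is described above by its role in glycogen alone.

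The DNA repair list held 2 of 16. Exo1, an exonuclease gene of mismatch repair and end resection, had a peak on chromosome 1 at 175728464 to 175728853, whose fold was 48.1 (log10 q -12.7) and a weak one of 11.2 (-2.0). Rev3l, which encodes the catalytic subunit of DNA polymerase zeta, had folds of 16.8 (-5.72) and 4.14 (-2.88). The sarcomere and Z-disc list held 1 of 36 (Mypn) and the list of ubiquitin ligases and F-box proteins of muscle 1 of 17. The ubiquitin ligase gene was Kbtbd13, a muscle adaptor of cullin 3 (14.4 and 12, -2.86 and -2.42). Kbtbd13 had no strong peak.

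No member came from the lists of m6A writers, erasers and readers (13 genes with 2 or more control peaks), glycolysis (10), oxidative phosphorylation and Krebs cycle (5), mitochondrial dynamics and carriers (9), adrenergic, muscarinic and cyclic nucleotide signalling (23), cardiac stress and fetal genes (5), or cell cycle and mitosis (15). The lists of other heart cell types also gave none, with 14 fibroblast and matrix, 14 endothelial, 9 smooth muscle and pericyte, 5 immune, 2 erythroid and 2 epicardial and neural genes with 2 or more control peaks. On these same lists, the knockout-only genes were Mfap4 of the fibroblast list (1 of 17 genes with 2 or more knockout peaks), Epor of the erythroid list (1 of 3), Tubb3 and Wt1 of the epicardial and neural list (2 of 4) and Aldoa of the glycolysis list (1 of 12). Over all genes the shares were 4.47% members and 3.19% knockout-only. A list with 0 members of 14 allows up to 23.2%, and 0 of 2 up to 84.2%, so these counts cannot show a difference between cell types.

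**Figure D5:**
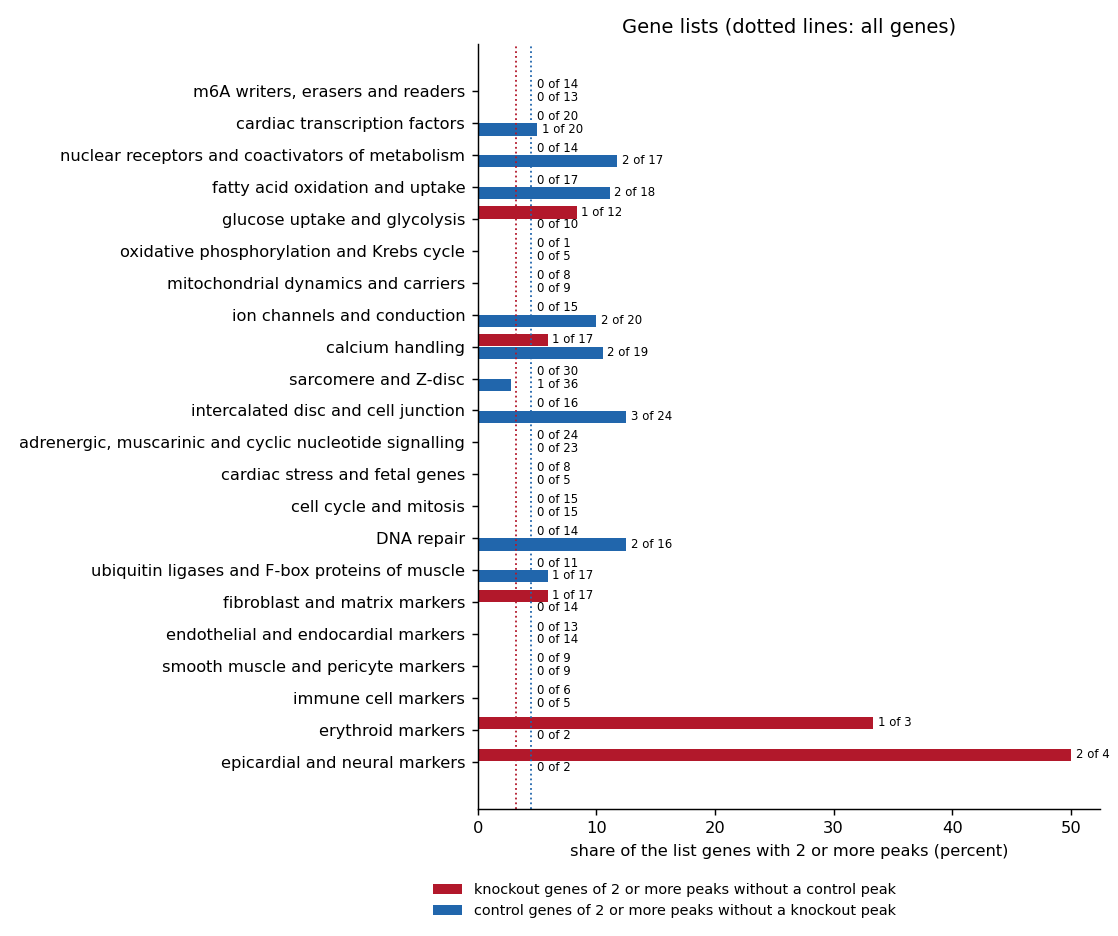
Percent of the genes of each of 22 lists that had 2 or more peaks in a list and none in the other. Red bars give knockout genes without a control peak, blue bars control genes without a knockout peak, and the counts stand beside the bars. The dotted lines are the shares over all genes, 3.19% (red) and 4.47% (blue), and the longest bars rest on 3 and 4 genes.

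Further members with 3 peaks were Mamstr, Rxfp1, Serac1, Oxsm and Mrpl15. Mamstr, which encodes a coactivator of MEF2 factors in muscle, had a strong first peak at 45293971 to 45294599 of chromosome 7, with a fold of 5.30 and a log10 q of -13.7, and weak ones of 8.02 and 14.4. Rxfp1, the relaxin receptor gene, had folds of 12.6, 9.22 and 3.21 and log10 q of -8.22, -6.78 and -2.79, so that both weakened in the direction of transcription. Serac1, which encodes a lipid-remodelling protein of mitochondrial contact sites, had its strong peak, with a fold of 9.45 and a log10 q of -27.5, at 6093966 to 6094295 of chromosome 17, between weak ones of 4.33 and 3.41. Oxsm, a gene of mitochondrial fatty acid synthesis, had 2.61, 3.97 and 4.41, none of them strong. Mrpl15, a gene of the large mitochondrial ribosomal subunit, had 16.8, 9.62 and 2.08, of which the last had the smallest q (log10 q -7.92).

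Among the remaining members with 3 or 4 peaks, strong peaks were found in Rabgap1l (fold 3.49, log10 q -17.6), Slc35e2 (10.8, -15.8), 4632428C04Rik (17.4, -15.5), Lrtm1 (5.33, -14.2), the zinc finger gene Zfp2 (14.2, -12.3) and Pkdrej, a polycystin family gene (13.8, -11.8). Each of these genes had 1. Zgrf1 reached a fold of 30.5 at a log10 q of -9.28, and Tnfrsf19, a TNF receptor family gene, 29.7 and 28.9 at -7.22 and -6.99. Ralgps1, which encodes an exchange factor for Ral GTPases, had 31.3 at -7.70, and Shank1, a synaptic scaffold gene, 27.3 at -6.52. These large folds were thus not those of strong peaks.

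In the other members with 3 or 4 peaks no peak was strong. The highest folds were 20 or more in Prdm16os (24.1), Lingo3 (23.3), 9230114K14Rik (22.5), Zfp874b, Zfand4 and Carmil3 (20.9 each) and Zswim5 (20.1). They were between 10 and 20 in B3galt1, 3000002C10Rik, Tll2, Zkscan7, Zfp39, Arhgap20, Zkscan14, Wdr1 and St7l (19.2 to 11.2). They were under 10 in Zfp612 (7.56), Pcdhgb7 (6.65), Tbc1d25 (4.90) and 6030458C11Rik (4.49), whose smallest log10 q lay between -9.02 and -7.24. Of these, Tll2 encodes a tolloid-type metalloprotease and Wdr1 a cofactor of actin disassembly.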

How the data were processed

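IP and input libraries (RNA fragments of about 100 nt from 300 µg, 2 h with the antibody, 150-base paired reads) were grouped by their genotype and antibody labels. The knockout titles use an abbreviation that differs from the genotype label. Peaks were called by the authors with exomePeak 2.16.0, at q up to 0.05, each IP against its input, per the series' design text. The build GRCm39 and the tools BWA 0.7.12, fastp 0.19.11 and HOMER 4.9.1 are listed in the submitters' processing notes. Scaling between IP and input and the use of strand are not given in the sources used here. The deposited fold per peak is a ratio, IP over input. The authors' log10 p and log10 q were treated as a score because of values at minus infinity (197 knockout and 203 control peaks).

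Rows were counted per Ensembl ID and overlaps took at least 1 exonic base (Python 3.11.15, pandas 2.3.3, numpy 2.4.6, scipy 1.17.1; figures matplotlib 3.10.9). Shares have exact (Clopper-Pearson) intervals, medians order-statistic ones. No p-value was computed, since each genotype has 1 pooled library pair and the members were chosen by this contrast. The counting was tested on simulated lists with planted genes. RefSeq symbols (GRCm38.p6, 228 members matched) served for gene types only. Sequences and transcript regions need a GRCm39 genome and were not analysed here.

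The members, the 22 lists and the threshold for strong peaks were chosen with earlier results of these data known. The naming rule took 85 genes: Wtap; members with 3 or more peaks, on a list, among the 12 of smallest p, the 8 of largest fold in the 25% of control peaks of smallest q, or the 5 weakest; the 5 genes with 1 knockout peak and most control peaks; and of knockout-only genes the 5 with most peaks and the 3 of smallest p. Other names were chosen after their values were seen, and a few single genes are not reported here. Alternatives were stricter q and fold, merged peaks, other overlap rules, equal numbers of peaks, 1 peak per gene, 1-block peaks and protein-coding genes only.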

Additional observations from a re-analysis of the deposited data

How the results depend on the processing

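Each list is 1 pooled library pair, so every count is a description of these libraries. Requiring a small q in the counted list alone, with all peaks of the other list kept, lowered the counts by its own construction: at 1e-5, 17 knockout-only and 51 control-only multi-peak genes (113 control peaks) were left, and at 1e-10, 1 and 11 (23 control peaks). Leaving peaks with a recurring pair of fold and log10 p out of the counted list alone left 65 knockout-only and 97 control-only genes (229 control peaks), and leaving them out of both lists gave 118 and 203, of which 97 were among the 244. The recurring pairs and the 1e-10 limit on 1 list were added after the data were seen. Under the other alternatives the number of control-only genes was between 201 and 351. It was 236, with 542 peaks, when overlapping or touching peaks of a gene were merged. With a fold of at least 4 in both lists it was 351, of which 192 were among the 244, at q at or under 0.001 in both lists 226, of which 109 were, and with equal numbers of peaks taken from both lists 260, against 159 knockout-only genes. With 1 peak per gene the median log10 q of the members was -5.17 and the median width 240 bases, and at q at or under 0.01 the median log10 q was -3.92. The members with a strong peak numbered 129 at q at or under 1e-5 and 27 at 1e-20. The control-only multi-peak genes on the gene lists numbered 15 at q at or under 0.01, of which 14 were among the 16 members on the lists. With overlapping peaks merged they numbered 16, the same genes. No paired analysis was possible because the labels give no shared replicate numbers and each group held 1 library.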

Other observations

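Families of symbols were counted after the values were seen and were not tested. Over all genes with 2 or more peaks, 3.19% of those in the knockout list were knockout-only and 4.47% of those in the control list were members. Zinc finger genes named Zfp gave 12 members of 220 genes with 2 or more control peaks (5.45%, 2.85 to 9.33), and 0 of 202 with 2 or more knockout peaks were knockout-only. The share of Zfp members was near that of all genes. Protocadherin genes gave 5 members of 31 (16.1%, 5.45 to 33.7), against 1 knockout-only gene of 22 (Pcdh9). The 5 were Pcdhb9, Pcdhgb5, Pcdhgb7, Pcdhgb8 and Pcdhgc5, all from the clustered genes on chromosome 18. These genes encode adhesion proteins and share exons or much sequence, so that the gene to which their peaks belong is uncertain. No listed peak of the 5 overlapped a control peak of another gene on the same strand. The folds of Pcdhb9 were 15.2 and 9.62, those of Pcdhgb5 9.62 and 14.4, and those of Pcdhgc5 10 and 12, and none of these peaks was strong. Genes of mitochondrial ribosomal proteins gave 3 of 19 (15.8%, 3.38 to 39.6), against 1 of 14 in the knockout list (Mrpl28). The 3 were Mrpl15, Mrpl50 and Mrps12, and the interval includes the 4.47% of all genes. The strongest peak of Mrpl50 had a fold of 3.46 and a log10 q of -17.0. Solute carrier genes named Slc gave 4 of 78 (5.13%, 1.41 to 12.6), against 1 of 81 in the knockout list. Potassium channel genes named Kcn gave 2 of 19 (10.5%, 1.30 to 33.1), against 2 of 18.

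By RefSeq type, 201 of the 244 members (82.4%) were protein coding, against 94.7% of the other genes with 2 or more control peaks. The knockout-only genes were like the members in this, with 147 of 180 protein coding. Another 23 members were long non-coding RNAs, 4 were pseudogenes of either kind (1 plain and 3 transcribed) and 16 had no RefSeq match. Predicted genes named Gm gave 22 members of 182 (12.1%, 7.73 to 17.7), against 13 knockout-only genes of 174, and genes named by a Rik clone gave 21 of 152 (13.8%, 8.76 to 20.3), against 9 of 131.

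Members lay on every autosome and on the X chromosome. The share of members among genes with 2 or more control peaks was highest on chromosome 1 (26 of 309, 8.41%, 5.57 to 12.1), where 9 of 309 genes were knockout-only, and on chromosome 18 (14 of 172, 8.14%, 4.52 to 13.3), where 2 of 156 were. It was lowest on chromosome 19 (5 of 212, 2.36%) and chromosome 11 (11 of 457, 2.41%, 1.21 to 4.27), where 22 of 495 genes were knockout-only. Over all chromosomes the shares were 3.19% knockout-only genes and 4.47% members. These chromosomes were picked out after their values were seen. The 14 members on chromosome 18 include the 5 clustered protocadherin genes and the clustered Dsc2 and Dsg2, which the interval takes as independent.

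Members with receptors and signalling roles outside the lists were also named after their values were seen. Ednra, the endothelin receptor A gene, had folds of 3.04 (log10 q -15.9) and 2.32 (-3.56). Erbb3, a neuregulin receptor gene, had 5.08 (-4.02) and 8.82 (-13.6). Ago2, which encodes the slicing Argonaute protein, had 3.91 (-11.8) and 2.81 (-7.09). Abhd5, which encodes the coactivator of the lipase ATGL on lipid droplets, had a strong peak in 2 exonic blocks (5.92, log10 q -14.0) and a weaker one (2.30, -6.71).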
